A study of Mus musculus with 8 samples.

Results

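Six2, Six4, Six5, Eya1, Eya2, Eya3, Eya4 and Pax3 were followed in the WFS1 chromatin immunoprecipitation sequencing (ChIP-seq) peaks of proliferating mouse myoblasts. The 8 genes, of 21938 protein-coding genes in the annotation used, were taken by name as myogenic regulators of the Six-Eya-Pax3 network. No threshold on a measured value was used, but earlier results of these data were known when the genes were chosen. A peak was assigned to a gene when any base of it lay inside the gene or within 100 kb of either end. Of 22292 peaks in the genome, 46 were assigned to the 8 genes, and no peak was assigned to more than 1 of them.

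WFS1 (wolframin) is a membrane protein of the endoplasmic reticulum that the study examined as an anchor of genes at the inner nuclear membrane. Wildtype proliferating C2C12 cells, an established mouse myoblast line, were crosslinked with disuccinimidyl glutarate and formaldehyde and precipitated with an antibody against endogenous WFS1. The precipitated DNA was split: one part was sequenced after 30 cycles of sonication and the other after 6 further cycles, 36 in all, so that large fragments could be read too. The other 6 of the 8 libraries of the series (the inputs of the wildtype cells, and the inputs and WFS1 ChIP of WFS1 knockout cells expressing WFS1-FlagTag, each at both sonications) were not analysed here. Both lists thus come from 1 immunoprecipitation and 1 genotype, with no replicate, so no test was run: counts and medians are set beside the same quantity over all protein-coding genes or all peaks. The lists give the position of each peak and neither its height nor its p-value, and the read depth behind them is unknown. Whether the inputs served as control in peak calling is not given in the sources used here. No measurement of the same antibody in cells without WFS1 was used, so specificity of single peaks was not tested.

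Six-family proteins are homeodomain transcription factors that bind a sequence named MEF3, TCAGGTTT, in the control regions of muscle genes. Eya proteins carry no DNA-binding domain of their own: they join Six-family proteins as coactivators and have phosphatase activity, while Dach proteins act as corepressors in the same network. Pax3, a paired-box and homeodomain factor, marks the muscle progenitors of the somite and acts upstream of the myogenic determination factors Myf5 and Myod1.

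Of the 8 genes, 7 had at least 1 peak within 100 kb, Six2 being the exception, beside 73.4% of all protein-coding genes. A peak found in both lists, meaning that a 30-cycle and a 36-cycle peak shared at least 1 base, lay near 6 of the 8, beside 47.8% of all genes. Six4, Eya1 and Eya3 had 9 peaks each, Eya4 had 8, Eya2 had 5, Six5 had 4 and Pax3 had 2. The median over the 8 genes was 6.5 peaks and that over all genes was 2.0, with an upper quartile of 5. Counts of 9 or more were found for 9.1% of protein-coding genes and counts of 8 or more for 11.6%. Joining peaks up to 500 bp apart left 7 for Eya3, 6 for Eya4 and 2 for Eya2, with the other counts unchanged. The shares of all genes were not counted for peaks joined in that way.

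Gene length differed widely, and a longer gene has a wider window. Six2, Six4 and Six5 measured 4, 13.8 and 3.96 kb, whereas Eya1, Eya2, Eya3, Eya4 and Pax3 measured 141, 177, 85.8, 248 and 95.9 kb. Per Mb of window, Six4 had 42.1 peaks, Eya3 31.5, Eya1 26.4, Six5 19.6, Eya4 17.9, Eya2 13.3 and Pax3 6.76, beside a median of 9.35 and an upper quartile of 19.7 over all genes. On this scale 5.94% of genes were at or above Six4 and 56.8% were at or above Pax3. The order of the 2 scales thus differed: Eya4 stood near Six4 in counts and below Six5 per Mb.

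**Figure D1:**
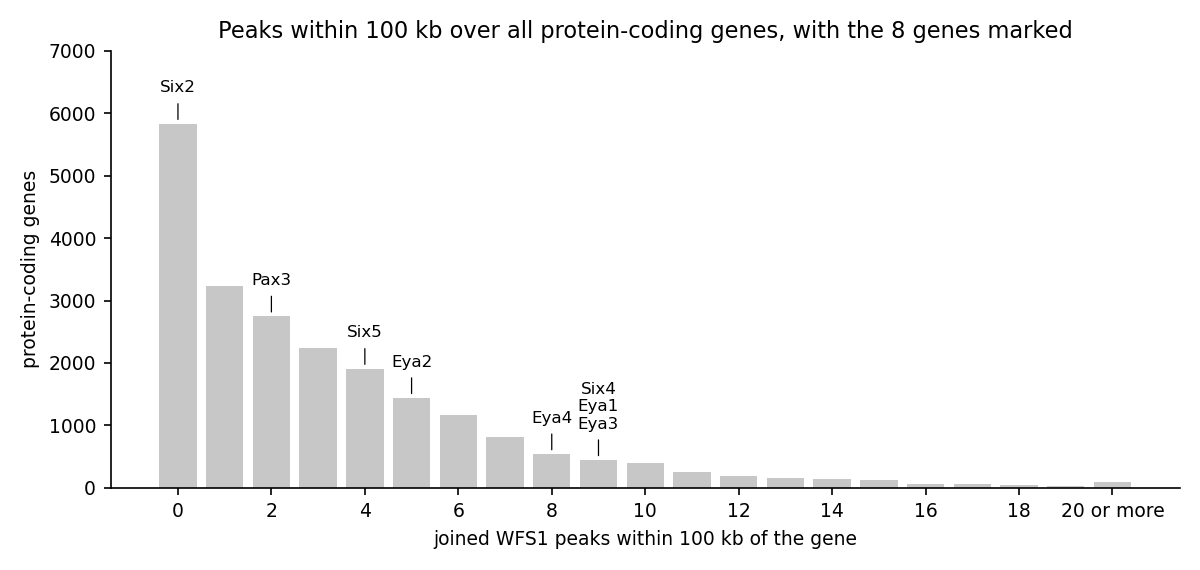
Number of joined WFS1 peaks within 100 kb of the gene (x axis, peaks) against the number of protein-coding genes with that count (y axis, genes; the last bar pools 20 or more). The 8 genes are marked above the bar of their count: Six2 stands at 0, Pax3 at 2, and Six4, Eya1 and Eya3 share the bar at 9.

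Peaks fell at different places around the 8 genes. Within the gene itself lay 15 of the 46 peaks, 18 lay upstream and 13 lay downstream. Six4, Eya1, Eya4 and Pax3 held a peak inside the gene, 4 of 8, beside 24.6% of all protein-coding genes. Among the 5 of the 8 genes that measure at least 80 kb, Eya1, Eya4 and Pax3 did so, beside 58.1% of all genes of at least that length. For 29 of the 46 peaks the nearest protein-coding start site, measured from the centre of the peak, was the gene's own, and for 17 it was another gene's.

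**Figure D2:**
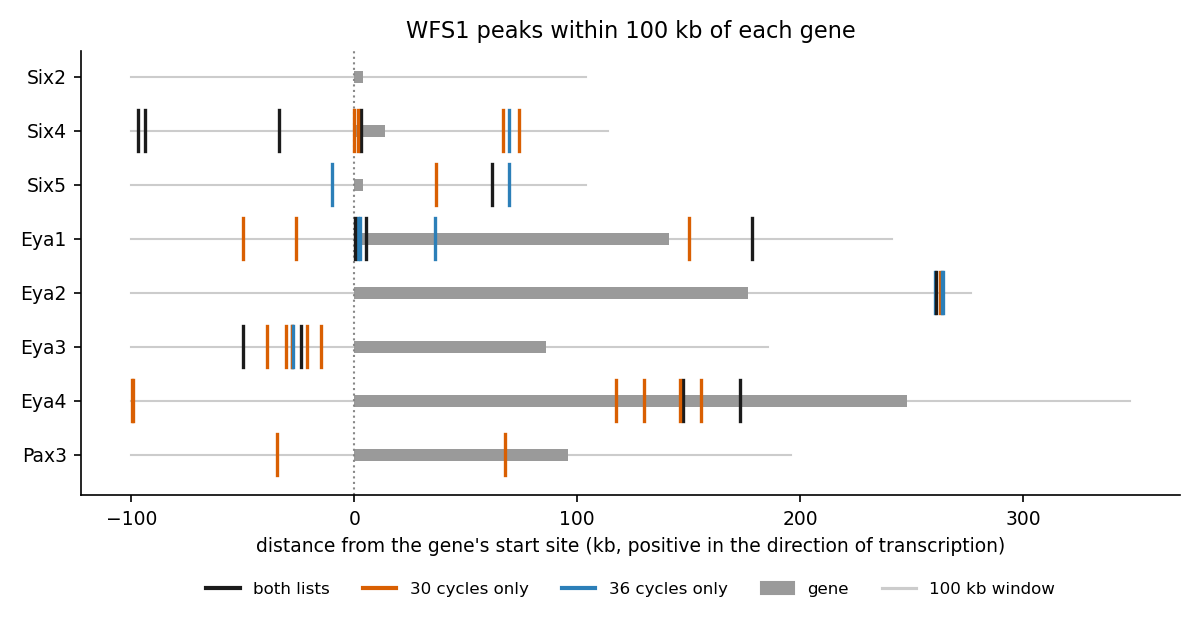
Position of each joined WFS1 peak (vertical ticks, coloured by the list that holds it) along the distance from the gene's start site in kb (x axis), for the 8 genes (rows). Grey bars show the genes and thin lines the windows of 100 kb on each side: the 9 Eya3 peaks all lie upstream, the 5 Eya2 peaks form 1 group far downstream, and Six2 has none.

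Start-site peaks, defined as lying no more than 1 kb from the gene's 5′ end, were found for Six4 and Eya1, 2 of the 8 genes, beside 13.2% of all protein-coding genes. In both a peak covered the start site itself. With the 36-cycle list alone Eya1 was the only gene of the 8 with such a peak, because the Six4 peak was called at 30 cycles only.

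Six4 encodes a homeodomain factor of early myogenesis and had peaks at its start site and far upstream. The gene lies at chr12:73099609-73113456 on the minus strand (GRCm38). A 30-cycle peak of 268 bp at chr12:73113217-73113484 covered the start site and an exon with coding sequence. A 30-cycle peak of 471 bp began 1.67 kb into the gene, and 2.68 kb into the gene, in an intron, lay a peak of both lists with 500 bp at 30 cycles and 453 bp at 36 cycles. The start-site peak was narrow, since 77.8% of all peaks were at least as wide. These 3 peaks spanned 3.22 kb at the 5′ end of the gene.

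In all, 4 short sequences were searched on both strands over the whole of each peak. They were the MEF3 letters TCAGGTTT, found in 2.36% of all peaks, and CAGCTG, an E-box bound by myogenic factors that reads the same on both strands and was found in 32.8%. The others were TGACTCA, bound by AP-1 factors and found in 31.2%, and TGNGGTT, a loose form of the RUNX site, found in 33.4%. Its N stands for any base, so its counts also hold letters outside the stricter RUNX site, and these were not counted apart. A match describes the letters of a peak and not a bound factor.

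The MEF3 letters occurred in 2 of the 46 peaks, and both were Six4 peaks of the 30-cycle list: the one on the start site and the one beginning 1.67 kb inside. Their sites lay 0.117 and 1.81 kb downstream of the start site. Of 32851 RefSeq promoter sequences (GRCm38.p6) 1.31% held the MEF3 letters. The promoter sequences matched to these genes measured 300 bases each, whereas peaks vary in width, so unlike numbers of bases were searched. A share of 2 in 46 is 4.35%, with a 95% Wilson interval from 1.2 to 14.5% that covers counting error only and holds the 2.36% of all peaks. Both sites lay in the central 200 bp of their peaks, where 0.947% of all peaks held the letters, a share below that interval. The 2 peaks lie in 1 gene and are not independent, so the interval cannot decide whether either share differs from that of all peaks. The sites are shown because Six-family proteins themselves bind these letters, here in peaks at the gene of one of them. The sequence around the start-site copy (chr12:73113325-73113354, plus strand, GRCm38, on an annotated exon) and that around the inner copy (chr12:73111565-73111724, plus strand, chosen after its values were seen) read as follows, with the motif in capitals.
Six4 start-site peak: gatctggccgaTCAGGTTTcccccaggcca
Six4 peak 1.67 kb inside: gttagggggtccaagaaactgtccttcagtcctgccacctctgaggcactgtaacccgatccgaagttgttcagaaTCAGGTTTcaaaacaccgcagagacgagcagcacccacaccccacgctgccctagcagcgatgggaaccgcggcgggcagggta

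**Figure D3:**
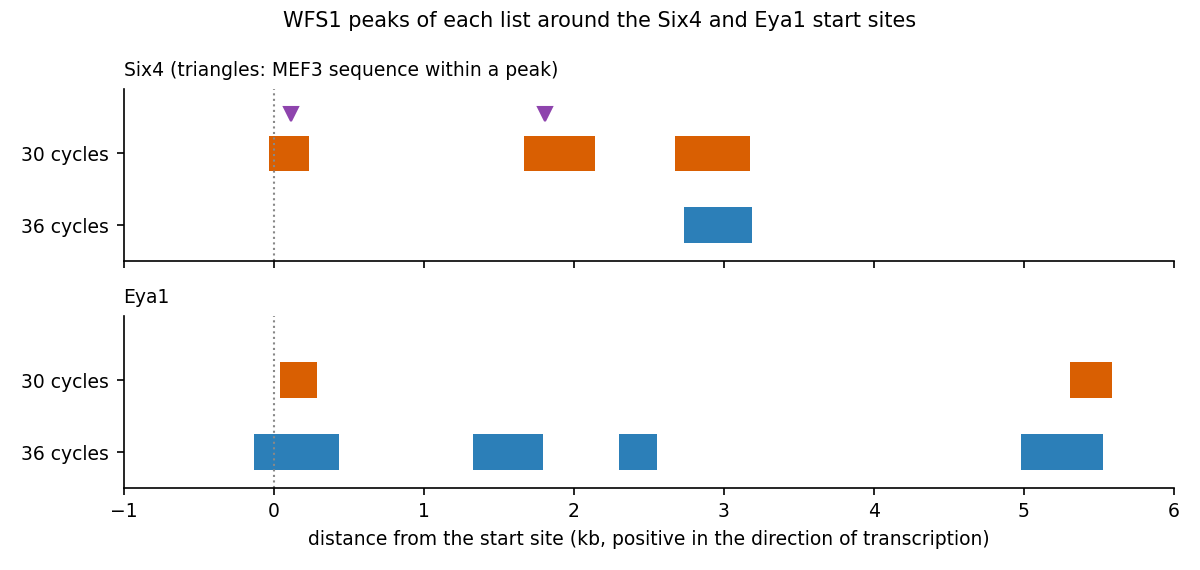
Peaks of the 30-cycle list (upper row of each panel) and of the 36-cycle list (lower row) against the distance from the start site in kb (x axis), for Six4 and Eya1. Bars span each called peak and triangles mark the MEF3 letters: the Six4 start-site peak has no 36-cycle partner, while the 36-cycle Eya1 peak reaches across the start site and the 30-cycle one lies within it.

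Upstream of Six4 lay 3 peaks, all found in both lists, and all inside Mnat1, a neighbouring gene for a subunit of the CDK-activating kinase. The nearest, 33.5 kb from the Six4 start site, was the widest Six4 peak at 720 bp, with 578 bp at 30 cycles and 560 bp at 36 cycles sharing 418 bp. The others, 93.6 and 96.8 kb away, measured 462 and 587 bp, and in each the 36-cycle peak lay wholly within the 30-cycle one. All 3 held CAGCTG, as did the peak of both lists inside the gene. None of the upstream peaks had Six4 as its nearest start site: Mnat1 was nearest for the peak at 33.5 kb and Trmt5 for the others. The 3 downstream peaks, 66.6 to 73.8 kb from the start site and each in 1 list only, also lay nearer to another gene's start site. They held no E-box, AP-1 or MEF3 sequence. Six4 was thus the nearest start site for 3 of its 9 peaks. The E-box of the widest peak lay 5 bp from the peak centre, and its surroundings (chr12:73147242-73147401, plus strand) are shown with the E-box in capitals.
Six4 peak 33.5 kb upstream: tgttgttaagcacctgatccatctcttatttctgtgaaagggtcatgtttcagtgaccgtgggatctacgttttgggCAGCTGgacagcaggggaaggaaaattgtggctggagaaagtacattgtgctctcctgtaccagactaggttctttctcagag

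Six5, a Six-family gene that adjoins Dmpk, the myotonic dystrophy protein kinase gene, had 4 peaks and none inside it. It lies at chr7:19094594-19098549 on the plus strand with 13 other protein-coding genes within 100 kb, and none of its 4 peaks had Six5 as the nearest start site. The closest peak, 9.98 kb upstream, was a 36-cycle peak of 251 bp within Dmpk, its centre 0.643 kb from the Dmpk start site. The others were a 30-cycle peak of 287 bp within Fbxo46, 36.4 kb from the Six5 start site, a peak of both lists of 540 bp within Gipr, 61.5 kb away, and a 36-cycle peak of 198 bp, 69.2 kb away. The last was among the narrowest peaks, 97% of all peaks being at least as wide. In the peak within Dmpk a pair of E-boxes stood near the centre, one of them 0.5 bp from it, followed by TGACTCA. The E-boxes are in capitals in the stretch chr7:19084412-19084571 (plus strand), as is the AP-1 sequence, read on the other strand, in chr7:19156315-19156344 of the widest peak, which lies on an annotated exon.
Six5 peak 9.98 kb upstream: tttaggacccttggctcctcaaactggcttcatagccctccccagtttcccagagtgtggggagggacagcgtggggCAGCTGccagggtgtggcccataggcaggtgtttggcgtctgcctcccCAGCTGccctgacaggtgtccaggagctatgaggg
Six5 peak 61.5 kb downstream: aatcgtggagtgTGAGTCAgctatgagaca

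Six2, which encodes a Six-family factor best known for kidney progenitors, lies at chr17:85684277-85688274 on the minus strand and had no peak within 100 kb in either list. The nearest peak on the chromosome lay 273 kb from the gene. No count above 0 appeared when the window was widened to 200 kb. Its RefSeq promoter (chr17:85688205-85688504, minus strand, GRCm38.p6) held 37 CG pairs in 300 bases, with 67.3% G and C, and none of the 4 motifs. RefSeq promoter sequences were matched for Six2, Six4, Six5, Eya3 and Eya4, 5 of the 8 genes, and of these the promoters of Six4 alone overlapped a WFS1 peak.

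Eya1, a gene for a Six-family coactivator, at chr1:14168954-14310235 on the minus strand, had 9 peaks and no other protein-coding gene within 100 kb. Its own start site was the nearest for each of the 9 peaks. The peak on the start site, chr1:14309802-14310365, was found in both lists: the 36-cycle peak measured 564 bp and held the whole of the 247 bp peak of the 30-cycle list. Further inside the gene 3 peaks followed: 36-cycle peaks of 471 and 250 bp at 1.33 and 2.31 kb, and a peak of both lists of 611 bp at 4.98 kb. This last peak was the widest at Eya1 and ended 18 bp upstream of the start of a shorter annotated transcript. These 4 peaks spanned 5.72 kb, and the 36-cycle list held all 4 of them and the 30-cycle list 2.

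In these Eya1 peaks of both lists the 36-cycle call was the wider one, the reverse of Six4. At the start site 43.8% of the 36-cycle bases were shared with the 30-cycle peak, and at 4.98 kb 40.9% were. In the third Eya1 peak of both lists, 36.8 kb beyond the 3′ end, the 36-cycle peak measured 525 bp and the 30-cycle peak 329 bp. In 9 of the 13 peaks of both lists at the 8 genes the 30-cycle call was the wider, and the exceptions were these 3 Eya1 peaks and the Eya4 peak at 173 kb, with 411 bp at 30 cycles and 424 bp at 36 cycles.

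The remaining Eya1 peaks were each in 1 list. A 36-cycle peak of 458 bp at 36.1 kb covered an exon with coding sequence. Peaks of the 30-cycle list lay 26.2 and 49.7 kb upstream (252 and 503 bp) and 8.69 kb beyond the 3′ end (242 bp). The start-site peak held an E-box, an AP-1 and a RUNX sequence, 1 of each. In this peak the AP-1 sequence covered the annotated start, its own centre being 0.002 kb away. The centremost site of the peak, a RUNX sequence read on the other strand, is shown with 30 bases (chr1:14310152-14310181, plus strand, on an annotated exon), with the motif in capitals.
Eya1 start-site peak: ttttgcaacgcaAACCACAgctagtctctt

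Eya2 spans 177 kb at chr2:165595032-165771727 on the plus strand, and none of its 5 peaks lay in the gene or upstream of it. All 5 fell within 3.54 kb, 83.8 to 87.1 kb beyond the 3′ end and 260 to 264 kb from the start site, inside Zmynd8, a gene for a chromatin-reader protein whose start site was the nearest to each. One was in both lists, at 820 bp with 567 bp of it in the 36-cycle list; 3 were in the 36-cycle list only and 1 in the 30-cycle list only. The widest was separated from the 195 bp peak beside it by 11 bp, and joining peaks up to 500 bp apart left 2 of the 5. With a window of 50 kb, or of 100 kb around the start site, Eya2 had no peak. The widest peak held CAGCTG and TGACTCA at 2 places each, and the TGACTCA 24.5 bp from its centre is in capitals (chr2:165856056-165856215, plus strand).
Eya2 peak within Zmynd8: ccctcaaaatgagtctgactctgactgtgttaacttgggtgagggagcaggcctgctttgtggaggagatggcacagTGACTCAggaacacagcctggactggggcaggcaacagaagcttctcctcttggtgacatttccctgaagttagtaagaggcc

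Eya3 lies at chr4:132638987-132724765 on the plus strand, and all 9 of its peaks were upstream, 14.4 to 49.5 kb from the start site. Between 21 and 30.3 kb upstream 6 peaks formed a group of 9.57 kb. In this group 1 was in both lists, 3 in the 30-cycle list only and 2 in the 36-cycle list only, and 30-cycle and 36-cycle peaks alternated at 27.3 to 27.9 kb with gaps of 16 and 79 bp. The 6 peaks of the group were 215 to 451 bp wide. The widest Eya3 peak, 1133 bp in the 30-cycle list with 619 bp of it in the 36-cycle list, lay 49.5 kb upstream. Only 4.32% of all peaks were at least that wide, and its nearest start site was that of Ptafr, the platelet-activating factor receptor gene. The peak nearest to the Eya3 start site, at 14.4 kb, was a 30-cycle peak of 654 bp.

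Both of these wide Eya3 peaks held searched letters at several places, and a wider peak offers more places for a match. The widest held CAGCTG at 2 places and TGACTCA at 3, and the nearest held each at 2 places. In each, an E-box lay at the centre, 2.5 bp from it in the widest and 4 bp in the nearest. The stretches chr4:132588861-132589020 and chr4:132624145-132624304 (plus strand) show these E-boxes in capitals.
Eya3 peak 49.5 kb upstream: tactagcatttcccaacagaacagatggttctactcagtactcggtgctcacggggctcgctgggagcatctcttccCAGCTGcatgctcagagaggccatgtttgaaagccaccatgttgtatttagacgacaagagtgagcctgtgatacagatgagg
Eya3 peak 14.4 kb upstream: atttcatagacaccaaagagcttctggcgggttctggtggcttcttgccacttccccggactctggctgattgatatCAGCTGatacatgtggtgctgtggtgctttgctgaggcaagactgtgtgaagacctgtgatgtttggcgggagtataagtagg

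Eya4, the longest of the 8 genes at chr10:23102963-23350786 on the minus strand, had 8 peaks, all far from its start site. The closest to the start site were 30-cycle peaks of 599 and 303 bp, 98.8 and 99.7 kb upstream, just within the window. Inside the gene 6 peaks lay in introns, 117 to 173 kb from the start site. The widest peak at any of the 8 genes was among them: at 146 kb, chr10:23202706-23204289, 1584 bp wide, joined from 30-cycle peaks of 1177 and 292 bp and a 36-cycle peak of 1322 bp. Only 1.15% of all peaks were at least as wide. The peak at 173 kb was also in both lists, while the other 4 inside the gene were in the 30-cycle list only, as were both upstream peaks, so that no Eya4 peak was in the 36-cycle list alone. The start of a shorter annotated Eya4 transcript lay 3339 bp from the peak at 117 kb.

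At Eya4 TGNGGTT, the loose RUNX form, was the most frequent of the sequences searched. The widest peak held TGNGGTT at 3 places and no CAGCTG or TGACTCA, and 5 of the 8 peaks held TGNGGTT. The AP-1 letters occurred in 1 Eya4 peak, that at 173 kb. A pair of the RUNX letters of the widest peak is in capitals in chr10:23203206-23203365 (plus strand).
Eya4 peak 146 kb inside: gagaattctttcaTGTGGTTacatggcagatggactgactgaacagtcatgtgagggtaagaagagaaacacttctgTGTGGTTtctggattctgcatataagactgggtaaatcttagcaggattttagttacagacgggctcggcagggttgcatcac

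Pax3, at chr1:78101267-78197134 on the minus strand, had 2 peaks, both of the 30-cycle list only and neither near the start site. One, of 493 bp, lay in an intron 67.5 kb from the start site, and the other, of 339 bp, 34.5 kb upstream. They were 102 kb apart, and Pax3 was the nearest start site for both. Of all protein-coding genes 58.7% had at least as many peaks. With the 36-cycle list alone no Pax3 peak remained. The intron peak held CAGCTG once and TGNGGTT at 2 places, 15 bases apart (capitals, chr1:78129142-78129301, plus strand). These copies read TGGGGTT and TGAGGTT, with G and A at the free base. The upstream peak held none of the 4 motifs, and repeats made up 46.6% of it: its central stretch (chr1:78231697-78231856) is shown as the contrast, with no capitals.
Pax3 peak 67.5 kb inside: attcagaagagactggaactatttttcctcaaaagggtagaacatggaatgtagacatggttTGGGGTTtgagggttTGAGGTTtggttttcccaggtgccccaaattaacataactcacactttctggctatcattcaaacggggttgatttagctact
Pax3 peak 34.5 kb upstream: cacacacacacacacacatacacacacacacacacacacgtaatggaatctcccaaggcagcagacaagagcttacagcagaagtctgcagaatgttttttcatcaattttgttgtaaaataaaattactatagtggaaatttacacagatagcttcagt

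Over the 8 genes together, 13 of the 46 peaks were in both lists (28.3%, 95% Wilson interval 17.3 to 42.5%), beside 35.4% of all peaks. The 30-cycle list alone held 22 (47.8%, against 45.5% of all peaks) and the 36-cycle list alone held 11 (23.9%, against 19.1%). The 95% Wilson intervals of these shares, 34.1 to 61.9% and 13.9 to 37.9%, hold the share of all peaks, as does that of the peaks of both lists. The intervals cover counting error only, and neighbouring peaks such as those near Eya2 are not independent.

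The median width of the 46 peaks was 411.5 bp (quartiles 265 and 558 bp), beside 376 bp (quartiles 276 and 568 bp) over all peaks. Peaks of both lists had a median of 564 bp at the 8 genes and 623 bp over all peaks, and peaks of 1 list had 310 and 305 bp. In the 36-cycle list taken alone the peaks at these genes had a median of 437.5 bp, beside 327 bp for the whole list. In the 30-cycle list alone they had 348 bp, beside 387 bp. Content of G and C was alike, with medians of 47.4 and 47.1%. Repeats filled over 50% of 3 of the 46 peaks, beside 10.4% of all peaks.

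**Figure D4:**
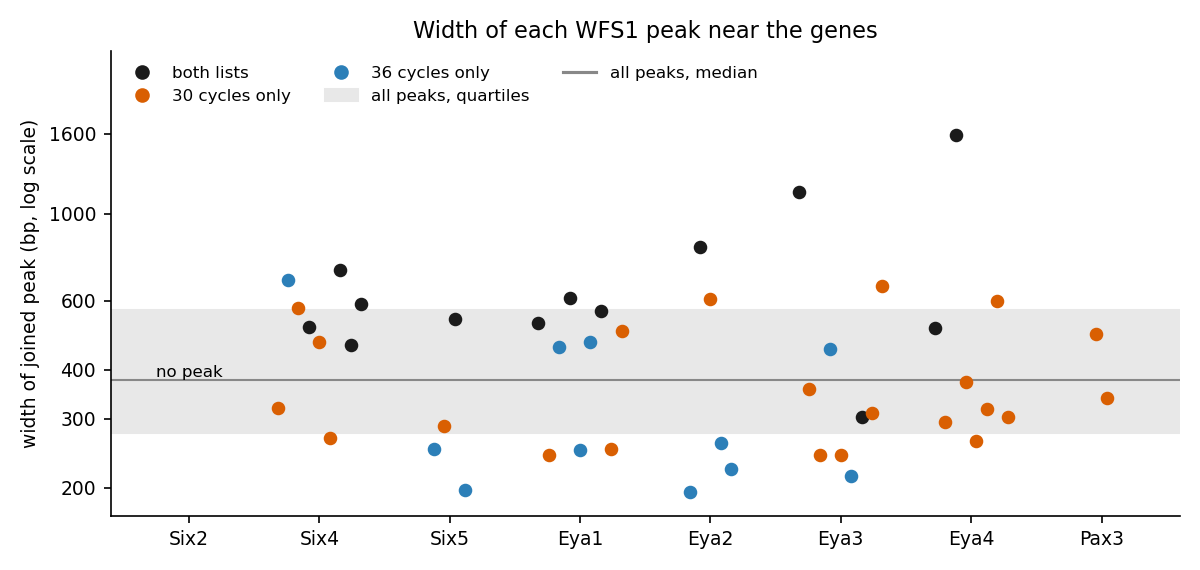
Width of each joined WFS1 peak in bp (y axis, log scale) for the 8 genes (x axis), coloured by the list that holds it, over the quartiles (grey band) and median (line) of all peaks. The widest points, 1584 bp at Eya4 and 1133 bp at Eya3, are peaks of both lists, and every peak under 300 bp is in 1 list only.

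Another peak lay within 5 kb of 27 of the 46 peaks, beside 44.4% of all peaks. The 27 peaks formed 8 groups of 2 to 6 peaks, at Six4 (3 groups), Eya4 (2 groups), Eya1, Eya2 and Eya3. Peaks of a group are not independent, 6 lying in the Eya3 group and 5 in the Eya2 group. No interval was computed, so a difference from all peaks was not tested. Neither Six5 nor Pax3 had such a group.

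The 46 peaks held 63 sites of the 4 sequences, and no pair of sites overlapped. CAGCTG occurred in 17 peaks (37%, interval 24.5 to 51.4%), beside 32.8% of all peaks. TGACTCA occurred in 14 peaks (30.4%, interval 19.1 to 44.8%), beside 31.2%. TGNGGTT occurred in 15 peaks (32.6%, interval 20.9 to 47%), beside 33.4%. Each of these 95% Wilson intervals held the share of all peaks. None of the 4 sequences occurred in 16 of the 46 peaks, beside 34.6% of all peaks.

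The searched letters were counted separately in peaks of both lists and of 1 list. Of the 13 peaks of both lists 10 held CAGCTG (76.9%), beside 46.8% of all peaks of both lists, and of the 33 peaks of 1 list 7 did (21.2%, against 25.1%). For TGACTCA the counts were 8 of 13 (61.5%, against 44.8%) and 6 of 33 (18.2%, against 23.7%). For TGNGGTT they were 5 of 13 (38.5%, against 48.3%) and 10 of 33 (30.3%, against 25.3%). No interval was computed for these shares. The 13 peaks are few and not independent, 4 of them lying at Six4. The counts thus cannot decide whether any of these shares differs from that of all peaks. Peaks of both lists are wider than peaks of 1 list, here 564 against 310 bp at the median. A wider peak offers more places for a match. Beside all peaks of both lists, with a median of 623 bp, those at the 8 genes were narrower at the median. The part of width in these shares was not tested. In the central 200 bp alone CAGCTG was found in 10 peaks (21.7%, against 17.9% of all peaks) and TGACTCA in 8 (17.4%, against 17.9%). TGNGGTT was found there in 7 (15.2%, against 18.6%).

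Genes that act with the 8 were counted from a list of 18: partners, other regulators of muscle progenitors, and targets. At least 1 peak lay within 100 kb of 16 of the 18 (73.4% of all protein-coding genes), a peak of both lists near 11 (47.8% of all), a peak inside 4 (24.6% of all), and a start-site peak at 4 (13.2% of all). The median was 4 peaks.

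Among the partners, the corepressor genes Dach1 and Dach2 had no peak within 100 kb, although they are long genes of 383 and 539 kb. The nearest peak lay 429 kb from Dach1 and 1939 kb from Dach2. Sobp, which encodes a Six-binding protein, had 8 peaks with 4 inside the gene and 1 at 0.879 kb from the start site. Pax7, the paralogue of Pax3 in satellite cells, had 5 peaks, of which 2 were in both lists, and the nearest to its start site was 114 kb away. Pax3 itself had 2 peaks and none in both lists.

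Each of the 6 other progenitor regulators counted had a peak, beside 73.4% of all protein-coding genes. Meox1 had 10 peaks, none inside the gene, the nearest at 7.05 kb. Msc, which encodes musculin, had 4, with one of 1477 bp. Tbx6 had 4, Lbx1 and Msgn1 had 2 each and Meox2 had 1.

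All 8 targets had a peak, beside 73.4% of all protein-coding genes, and 3 had a start-site peak, beside 13.2%: Met, the receptor gene of migrating progenitors, Myf5 and Aldoa. Met had 7 peaks, Fgfr4 7, Myog 4, Aldoa 3, Myod1 2 and Itm2a 1. Myf5 and Myf6 are neighbours, and the same 6 peaks were counted for both, with one of 1479 bp. Aldoa and Tbx6 shared 3 peaks as well, so the 18 genes are not separate observations.

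**Figure D5:**
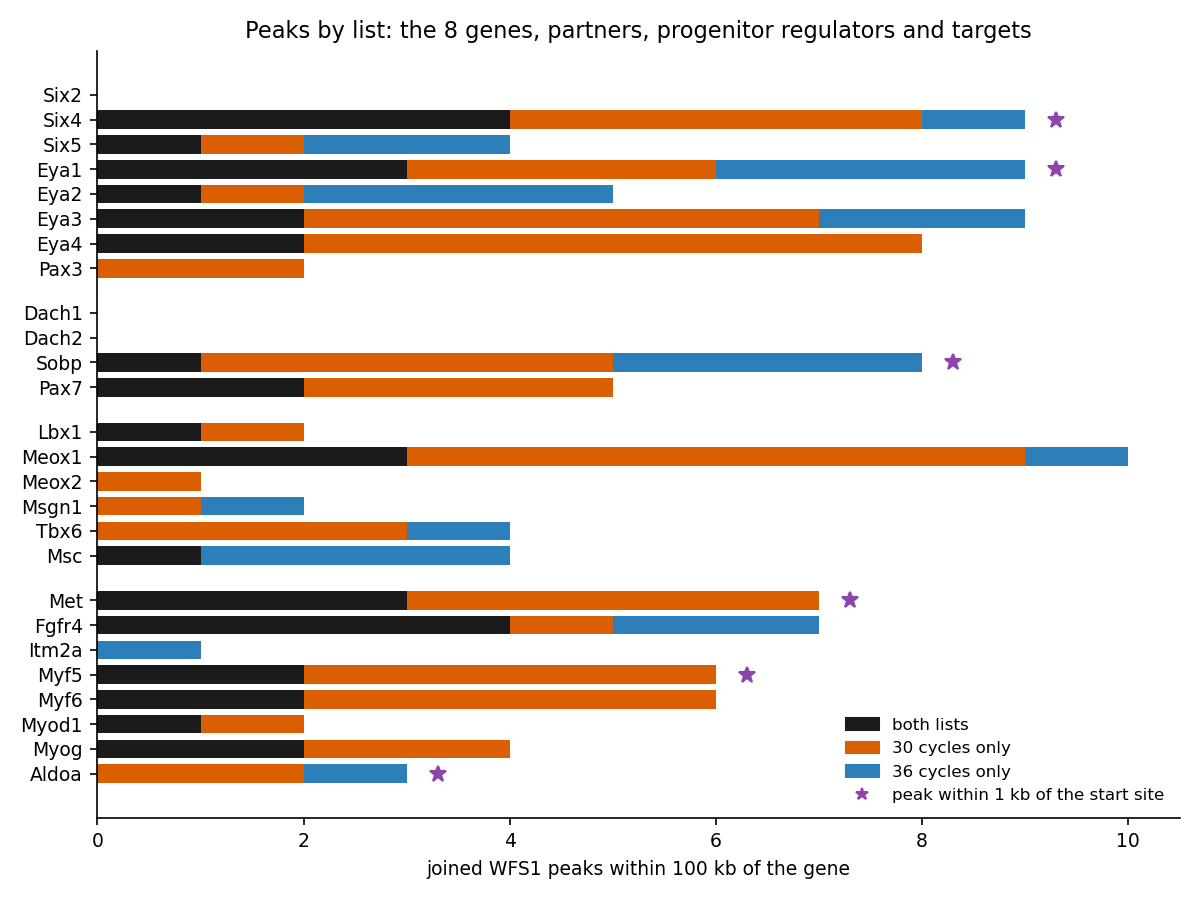
Number of joined WFS1 peaks within 100 kb (x axis, peaks; bars divided by list) for the 8 genes, 4 partners, 6 progenitor regulators and 8 targets (rows). Stars mark start-site peaks, at most 1 kb away: Six2, Dach1 and Dach2 have no bar, and Meox1 has the longest, at 10.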

How the data were processed

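The authors called the peaks with MACS2, separately for the 30-cycle and the 36-cycle library, from reads mapped to GRCm38 (mm10) and filtered on mapping quality, and deposited for each library the chromosome, start and end of every peak, with no score: 18283 peaks at 30 cycles and 12674 at 36 cycles. Depth is unknown and no height can be compared. For the present report, peaks of both lists that overlapped or touched were joined, as bedtools merge (2.31.1) does, into 22292 peaks. Genes and start sites came from GENCODE M21 (GRCm38), a gene's start site being its 5′ end; of 2 genes named Aldoa the one with the lower Ensembl number was used. Distances run to the nearest edge of a peak or to the centre of a motif site, and coordinates count from 1. Sequences came from the GRCm38.p6 genome. Stretches shown are from the peak nearest to the start site or the widest peak of most genes, around the motif nearest to the centre. All 8 genes and all their peaks were described. Shares carry 95% Wilson intervals for counting error (scipy 1.17.1). Joining, distances and motif search were tested on simulated and independently joined peaks. One gene of the pathway list and 1 stretch of sequence are not reported here, and the list was counted without that gene. The genes, gene lists and motifs were chosen with earlier results of these data known. With 1 library per list no test was run.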

Additional observations from a re-analysis of the deposited data

How the results depend on the processing

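Of 27 alternatives, 20 left the count within 1.5 times of the reported one, or the median width between 303 and 511 bp, its 95% interval from ranks. The 46 peaks became 24 with the 36-cycle list alone, 23 with peaks wider than the median of their own list (no score allows a stricter peak threshold), and 29, in an alternative chosen after seeing the data, with peaks nearest to the gene's own start site. The 2 genes with a start-site peak became 1 with the 36-cycle list alone (Eya1) and 1 with the wider peaks (Eya1). In the central 200 bp, TGACTCA was found in 8 peaks in place of 14 and CAGCTG in 10 in place of 17, fewer bases being searched. The start-site count was 3 within 10 kb, where Six5 joined, and 2 with RefSeq start sites, also added after seeing the data. Six2 had 0 peaks under each window and list tried. No paired analysis was possible because both lists come from 1 immunoprecipitation and nothing was tested. Unknown depth and a single immunoprecipitation limit what an absent peak can show.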
